A study of Homo sapiens with 12 samples.

Results

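Genes best known from the placenta, together with alkaline phosphatase genes, were followed through the first days of reprogramming of human fibroblasts, with and without a guide against MRG15. The 9 genes are the transcription factor genes GATA2, GATA3, TFAP2A, TFAP2C and HAND1, the envelope gene ERVW-1, which encodes syncytin-1, and the alkaline phosphatase genes ALPG, ALPP and ALPL. They were chosen by name, with earlier results of these data known, and each matched 1 of the 60660 gene identifiers of the expression table. All 9 were among the 14858 genes that passed a filter on low values and were tested.

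The cells were dH1f, a line of fibroblasts derived from the H1 human embryonic stem cell line, and poly(A) RNA was sequenced with a stranded kit. The 12 libraries fell into 4 groups of 3. KO cells on day 6 carried a lentiviral CRISPR vector with a guide against MRG15 and had been given OSKM, the reprogramming factors OCT4, SOX2, KLF4 and MYC. NT cells on day 6 carried a non-targeting guide and had the same factors for the same time. KO cells on day 0 and NT cells on day 0 carried the same vectors and were collected before OSKM. All KO libraries carried 1 guide code, no group had MRG15 restored, and no group was cultured to day 6 without OSKM, so that OSKM and time in culture cannot be told apart. The labels do not say whether the replicates were separate cultures, and the p-values then measure only the spread between these samples.

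In the embryo, GATA2, GATA3, TFAP2A and TFAP2C form a set of factors of the early trophectoderm, the outer layer of the blastocyst that gives rise to the placenta, and HAND1 acts in trophoblast of the mouse and in the amnion and heart. Syncytin-1 is the envelope protein of an endogenous retrovirus of the W family, and it fuses trophoblast cells into the syncytium that faces maternal blood. ALPP is the placental alkaline phosphatase and ALPG, its close copy, the germ cell form, while ALPL is the tissue-nonspecific form of bone, liver and pluripotent cells, whose activity is the classical stain for pluripotent colonies. MRG15, the product of MORF4L1, is a chromodomain protein that binds methylated histone H3 and takes part in histone acetylation and deacetylation complexes.

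Levels are given as normalised counts that were estimated from the deposited variance-stabilised (VST) values, which are on a log2 scale and level off near 0 reads at 4.85. Differences and their standard errors are in VST units, which understate the fold change of low genes, and adjusted p-values are from limma over all 14858 genes. The fold changes given beside them are ratios of mean normalised counts. A gene was called at an adjusted p under 0.05. Depth was 17.8 to 22.2 M reads per library assigned to genes, as estimated from the values. MORF4L1, the target, had 1059, 960.6 and 1040 normalised counts in KO libraries on day 6 against 6709, 7116 and 7043 in NT libraries, 85.3% lower, and it was 82.8% lower in KO than in NT libraries on day 0. KO and NT libraries did not overlap for MORF4L1 on either day.

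On day 6 the placental-type genes did not all differ between KO and NT cells in the same direction. ALPG, ALPP, ERVW-1, GATA2 and TFAP2C were higher in KO than in NT cells, TFAP2A was lower, and GATA3, HAND1 and ALPL did not pass the test. Thus 5 of the 9 genes were called higher, beside 17.7% of all genes tested, and 1 of 9 lower, beside 19.2%. The 5 include ALPG and ALPP, whose reads cannot be fully told apart. On day 0, 1 of the 9, TFAP2C, was called higher, beside 7.42% of all genes tested, and 1 of 9, ALPL, lower, beside 10.7%. Without overlap between the libraries, 6 of the 9 stood above NT on day 6, beside 25.0% of all genes tested, and 1 below, beside 24.6%. On day 0, 1 stood above, beside 15.1%, and 1 below, beside 18.6%. The median difference of the 9 genes between KO and NT was 0.51 on day 6 and 0.04 on day 0, where the medians of all genes tested were 0.006 and -0.004. The 9 genes were chosen with earlier results of these data known, and GATA2, ERVW-1, ALPG and ALPP passed the filter only through day 6. These counts and medians thus describe the 9 genes and support nothing further.

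**Figure D1:**
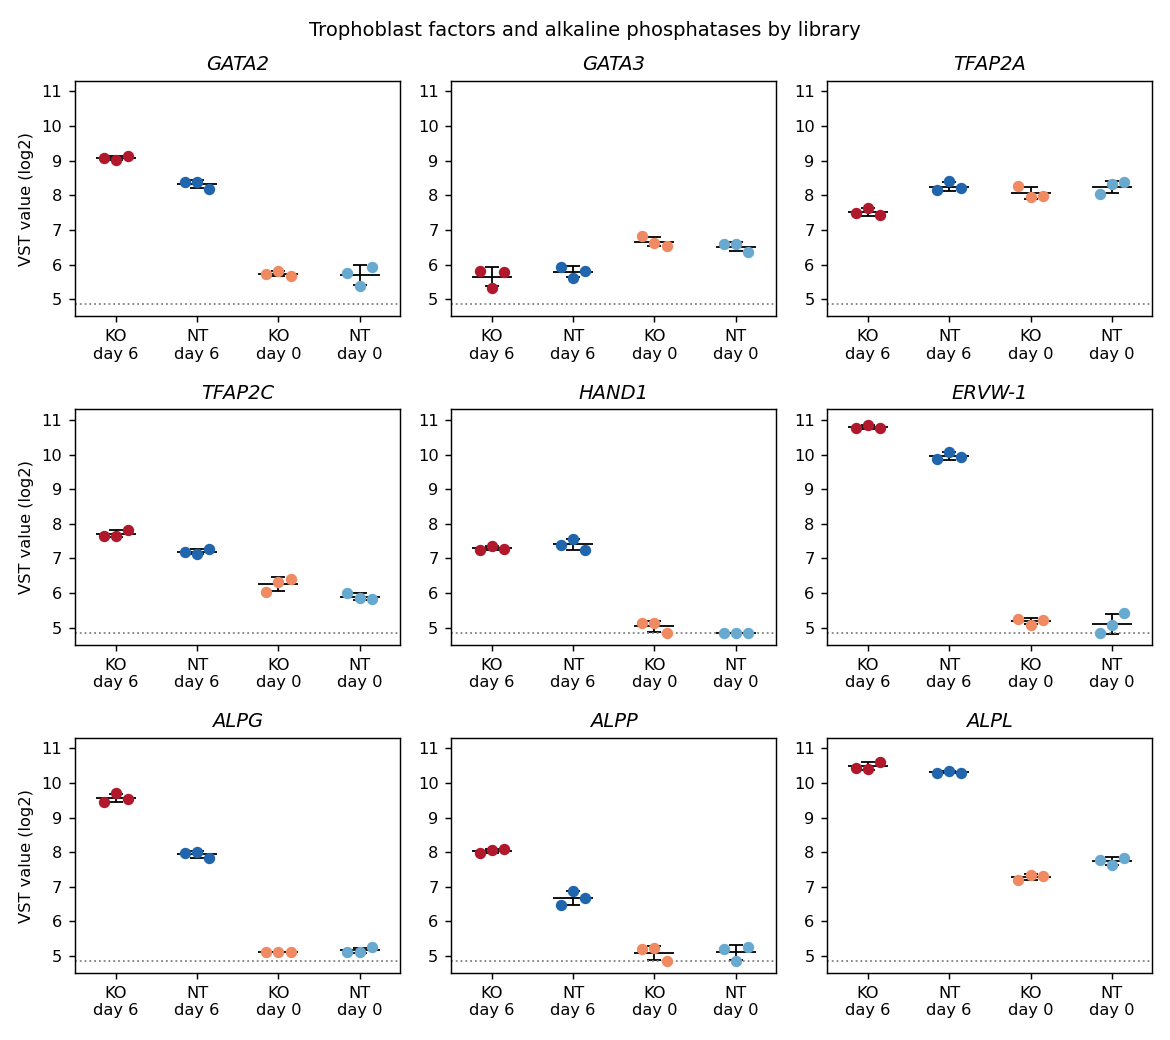
VST value (log2 scale, vertical axis) of each gene in each library, by group along the horizontal axis, with the mean (line) and SD (bars) of the 3 libraries; the dotted line is the value of a gene with 0 reads. GATA2, ERVW-1, ALPG and ALPP are highest in KO cells on day 6, while ALPL is high in both day 6 groups and GATA3 is higher on day 0.

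GATA2 and GATA3 are zinc finger factors that bind the same GATA motif. GATA2 was higher in KO than in NT cells on day 6, and GATA3 was not called between them. The group means of GATA2 were under the filter on day 0 and those of GATA3 on day 6, so that each passed the filter through 1 day and its direction between the days was largely set by that. GATA2 (ENSG00000179348.12, GRCh38 chr3:128479427-128493185, minus strand) had 487.7, 466.5 and 509.4 normalised counts in KO libraries on day 6 and 280.1, 274.7 and 235.2 in NT libraries on day 6. It had 11.2, 13.3 and 9.26 in KO libraries on day 0 and 11.9, 3.92 and 17.3 in NT libraries on day 0. Every KO library lay above every NT library on day 6, and the 2 day 0 groups overlapped and lay far below both. GATA2 was 1.85-fold higher in KO than in NT cells on day 6 (difference 0.77 ± 0.13 SE, adjusted p = 2.94e-04, limma) and did not differ detectably on day 0 (0.04, adjusted p = 0.872). On the scale of log2 of estimated counts plus 1, the day 6 difference was 0.89 and was not called (adjusted p = 0.0657). Its rise between the days was 43.4-fold in KO cells and 23.8-fold in NT cells (adjusted p = 4.56e-12 in KO cells and 1.28e-10 in NT cells, limma). GATA2-AS1, on the opposite strand, averaged 13.5 in KO cells and 10.4 in NT cells on day 6, and whether strand was used in counting is not stated. In bulk RNA such values cannot tell apart more cells that express a gene and more RNA per cell.

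GATA3 (ENSG00000107485.18, chr10:8045378-8075203, plus strand) had 13.6, 3.17 and 12.6 normalised counts in KO libraries on day 6 and 17.3, 8.38 and 12.9 in NT libraries on day 6. The day 0 values were 61.6, 49.4 and 44.5 in KO libraries and 47.4, 47.3 and 35.0 in NT libraries. Both day 6 groups lay below both day 0 groups, and KO and NT libraries overlapped on each day. GATA3 was thus 81.1% lower on day 6 than on day 0 in KO cells and 70.3% lower in NT cells (adjusted p = 1.73e-05 in KO cells and 4.59e-04 in NT cells, limma). The KO and NT groups did not differ by the test on day 6 (-0.14 ± 0.15 SE, adjusted p = 0.494) or on day 0 (0.14, adjusted p = 0.567). On the scale of normalised counts per kilobase of exon, GATA2 stood at 109 in KO cells and 59.0 in NT cells on day 6, and GATA3 at 2.85 in KO cells and 3.73 in NT cells.

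GATA6 passed the filter on low values, and GATA1, GATA4 and GATA5 did not. GATA6, a factor of endoderm and heart, had 48.7 ± 16.2 normalised counts in KO cells and 129 ± 9.96 in NT cells on day 6 (SD, n = 3), and was called lower (-0.91, adjusted p = 1.15e-04, limma). GATA5 averaged 14.6 in KO cells and 16.6 in NT cells on day 6 and under 1 on day 0. Counts over this and the later lists stand beside the shares of all genes tested. Between KO and NT these were 17.7% higher and 19.2% lower on day 6, and 7.42% and 10.7% on day 0. Between the days they were 37.6% higher and 36.2% lower in KO cells, and 33.6% and 33.1% in NT cells. Among 6 tested genes of a list of 10 GATA paralogs and cofactors, 1 was higher and 1 lower in KO cells on day 6, while none was higher and 1 lower on day 0. The higher one was TRPS1, a GATA-type zinc finger repressor, with 1009 normalised counts in KO cells and 822.3 in NT cells on day 6 (0.28, adjusted p = 0.0217, limma). Between the days 1 was called higher and 3 lower in KO cells, and 1 higher and 2 lower in NT cells. The riser was LMO2, a LIM protein that bridges GATA factors to other DNA-binding proteins in blood cells, with differences of 1.86 in KO cells and 1.78 in NT cells.

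The AP-2 genes TFAP2A and TFAP2C encode factors that bind the same GC-rich motif and can pair with each other. On day 6 TFAP2A was lower and TFAP2C higher in KO than in NT cells. TFAP2A (ENSG00000137203.15, chr6:10393186-10419659, minus strand) had 126.8, 145.5 and 119.7 normalised counts in KO libraries on day 6, against 227.1, 281.4 and 239.3 in NT libraries. On day 0 it had 250.6, 195.0 and 198.4 in KO libraries and 207.7, 265.5 and 275.2 in NT libraries. The day 6 KO libraries stood below all 9 others, which overlapped. TFAP2A was 47.6% lower in KO than in NT cells on day 6 (-0.73 ± 0.12 SE, adjusted p = 2.15e-04, limma) and was not called on day 0 (-0.18, adjusted p = 0.341). Between the days it was 39.1% lower in KO cells (adjusted p = 6.32e-04), and no change was detected in NT cells (0.00, adjusted p = 0.987).

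TFAP2C (ENSG00000087510.7, chr20:56629302-56639283, plus strand), which is also needed for human germ cells and naive pluripotency, had 148.3, 146.6 and 171.2 normalised counts in KO libraries on day 6 and 93.9, 87.7 and 101.7 in NT libraries on day 6. It had 20.0, 32.9 and 36.4 in KO libraries on day 0 and 19.3, 14.3 and 13.8 in NT libraries on day 0. No group overlapped with another, in the order KO on day 6, NT on day 6, KO on day 0 and NT on day 0. TFAP2C was 1.64-fold higher in KO cells on day 6 (0.51 ± 0.12 SE, adjusted p = 0.00314, limma). On day 0 it averaged 29.8 ± 8.61 in KO cells and 15.8 ± 3.06 in NT cells (SD, n = 3), a difference of 0.36 ± 0.12 SE that was barely under the threshold (adjusted p = 0.0486, limma). That day 0 call was lost in 15 of the alternatives tried, with adjusted p of 0.0506 to 0.175. Among them were 11 of the 12 that left out 1 library, all but the one without KO replicate 1 of day 0, which gave 0.0170. TFAP2C rose 5.22-fold between the days in KO cells and 5.97-fold in NT cells (adjusted p = 2.4e-08 in KO cells and 1.26e-07 in NT cells).

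Of the other AP-2 genes, TFAP2B and TFAP2D stayed under 7 normalised counts in every group mean, and TFAP2E averaged 7.74 in KO cells and 12.6 in NT cells on day 6. Of 8 listed AP-2 paralogs and cofactors 4 were tested, of which 0 were called higher and 1 lower in KO cells on day 6. On day 0 limma called 0, and 2 had an unadjusted p under 0.05. The lower gene was CITED2, a coactivator of AP-2 factors (-0.43, adjusted p = 5.57e-06, limma). CITED2 also fell between the days in both genotypes, by 2.00 in KO cells and by 1.70 in NT cells. KCTD1 and KCTD15, repressors of AP-2 activity, were called higher on day 6 than on day 0 in KO and in NT cells, and CITED4 lower with CITED2, which made 2 higher and 2 lower in each genotype.

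HAND1 (ENSG00000113196.3, chr5:154474972-154478264, minus strand), a bHLH factor of trophoblast, amnion and heart, was near 0 on day 0 and present in both genotypes on day 6. It had 99.8, 112.4 and 103.1 normalised counts in KO libraries on day 6 and 116.3, 137.0 and 99.5 in NT libraries on day 6, which overlapped. On day 0 it had 1.04, 0.989 and 0 in KO libraries and 0 in all 3 NT libraries. The difference between KO and NT cells was -0.11 ± 0.12 SE on day 6 (adjusted p = 0.511, limma) and 0.18 on day 0 (adjusted p = 0.335). With the floor removed and a pseudocount of 1 the day 0 difference was called, at 1.86 (adjusted p = 0.0448), on about 2 reads in KO cells. Against the limit of 3 counts over the 3 NT libraries on day 0, HAND1 was at least 117.6-fold higher on day 6 in NT cells. In KO cells the ratio of the days was 155.3, with a 95% counting interval of 43.2 to 1306. Its paralog HAND2 was expressed in all groups, with 506.6 normalised counts in KO cells and 434.0 in NT cells on day 6, and was not called between them (0.20, adjusted p = 0.186). Of 8 listed HAND1 partners and paralogs 6 were tested: limma called 0 between KO and NT on day 6, where 0 had an unadjusted p under 0.05, and 1, the E protein gene TCF4, was higher in KO cells on day 0 (0.32, adjusted p = 0.0455, limma). Between the days 1, TWIST1, was higher and 2 were lower in KO cells, and 1, again TWIST1, higher and 3 lower in NT cells.

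ERVW-1 (ENSG00000242950.7, chr7:92468380-92477986, minus strand) had the largest VST change between the days among the 9 genes. It had 1674, 1785 and 1696 normalised counts in KO libraries on day 6, against 870.0, 1025 and 912.9 in NT libraries. Day 0 libraries held 2.34, 0.806 and 1.77 in KO cells and 0, 0.732 and 4.56 in NT cells, which is a few reads each. Of its 31-base windows 1.61% occur in annotated transcripts of other genes. Sequence outside annotated transcripts was not searched, so that sharing of reads with other copies of the family was not tested. On day 6 no KO library overlapped with an NT library, and on day 0 the groups overlapped. ERVW-1 was 1.84-fold higher in KO than in NT cells on day 6 (0.84 ± 0.12 SE, adjusted p = 1.11e-04, limma). On the scale with the floor removed and a pseudocount of 1 the difference was 0.86 and not called (adjusted p = 0.346), and on that of estimated counts plus 1 it was 0.88 and not called (adjusted p = 0.152). On day 0 the KO to NT ratio was 0.928, with a 95% counting interval of 0.230 to 4.35 that leaves its direction undetermined at this depth. Between the days the ratio was 1049 in KO cells (counting interval 441.5 to 3177) and 530.2 in NT cells (240.4 to 1731).

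Receptor genes of syncytin-1 were lower in KO cells, and the gene of syncytin-2 stayed near 0. ERVFRD-1, the gene of syncytin-2, averaged 0.876 normalised counts in KO cells and 1.18 in NT cells on day 6. SLC1A5, the neutral amino acid transporter that serves as a receptor of syncytin-1, had 3946 in KO cells and 6360 in NT cells on day 6 and was called lower (-0.68, adjusted p = 1.27e-08, limma). SLC1A4, a related transporter that can also serve as a receptor, was lower by a larger margin (-1.43, adjusted p = 4.46e-08), with 143.2 in KO cells and 470.8 in NT cells. Of 9 listed syncytins, envelope genes and receptors 5 were tested. PLSCR1, a scramblase, made 1 higher against 2 lower in KO cells on day 6, and on day 0 none was higher and 2, SLC1A5 and SLC1A4, were lower. From day 0 to day 6, 2 were called higher and 3 lower in each genotype.

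ALPG and ALPP lie side by side on chromosome 2 and showed the largest differences between KO and NT among the 9 genes on day 6. Because their promoters bear on how alike the genes are, the RefSeq sequence of each (GRCh38.p14, plus strand, 250 bases before to 50 after RefSeq's gene start) is shown with that of ALPI, the intestinal alkaline phosphatase gene of the same cluster, which stayed near 0. Capitals mark CCACACCC, a CACC box of the kind KLF factors bind, GGGCGG, a GC box, and TTTAAA, each searched on both strands. The promoters cover chr2:232406594-232406893 for ALPG, chr2:232378501-232378800 for ALPP and chr2:232455903-232456202 for ALPI. RefSeq starts ALPP at 232378751, which is inside the gene as GENCODE annotates it, and ALPG at 232406844.
ALPG: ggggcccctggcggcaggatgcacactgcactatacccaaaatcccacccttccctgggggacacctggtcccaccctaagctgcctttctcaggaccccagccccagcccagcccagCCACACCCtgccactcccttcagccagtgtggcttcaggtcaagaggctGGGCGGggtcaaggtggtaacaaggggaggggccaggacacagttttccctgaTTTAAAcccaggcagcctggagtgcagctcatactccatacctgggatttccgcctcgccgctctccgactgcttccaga
ALPP: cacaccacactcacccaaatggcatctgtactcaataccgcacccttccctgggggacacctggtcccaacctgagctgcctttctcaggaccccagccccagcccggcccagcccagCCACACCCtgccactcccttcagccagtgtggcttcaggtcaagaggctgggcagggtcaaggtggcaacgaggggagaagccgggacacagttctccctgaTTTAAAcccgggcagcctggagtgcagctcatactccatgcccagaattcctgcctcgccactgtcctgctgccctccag
ALPI: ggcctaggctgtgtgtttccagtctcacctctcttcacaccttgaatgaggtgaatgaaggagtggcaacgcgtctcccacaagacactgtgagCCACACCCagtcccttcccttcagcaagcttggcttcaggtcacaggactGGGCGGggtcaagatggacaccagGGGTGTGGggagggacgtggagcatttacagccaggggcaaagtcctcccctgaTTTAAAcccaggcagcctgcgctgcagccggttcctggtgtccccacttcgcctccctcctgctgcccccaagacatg

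In a global alignment the ALPG and ALPP promoters shared 254 of 293 aligned bases, or 86.7%, while ALPI was 72.5% identical to ALPG and 70.3% to ALPP. These shares leave out gaps, which were 14 bases between ALPG and ALPP, 70 between ALPG and ALPI and 68 between ALPP and ALPI. Positions are counted from the RefSeq start to a motif's first base. ALPG and ALPP both hold a CACC box at -132 and TTTAAA at -30, and ALPG alone of the pair has a GC box, at -83. ALPI holds CACC boxes at -156 and -82, a GC box at -106 and TTTAAA at -28. Of 35116 RefSeq promoters of the same length, 3.28% hold CCACACCC, 45.0% hold GGGCGG and 12.2% hold TTTAAA. The letters are thus present in ALPI as well, and a match is a description of the sequence only. Promoter entries were matched for 8 of the 9 genes, all but TFAP2C. The octamer ATGCAAAT was in none of these entries and is in 1.77% of all promoters.

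ALPG (ENSG00000163286.9, chr2:232406843-232410714, plus strand) had 645.9, 772.3 and 686.2 normalised counts in KO libraries on day 6, against 198.8, 203.3 and 173.1 in NT libraries. On day 0 the values were 1.04, 0.983 and 1.11 in KO libraries and 1.07, 1.10 and 2.25 in NT libraries, about a read each. The lowest KO library on day 6 lay above 3 times the highest NT library. ALPG was 3.66-fold higher in KO than in NT cells on day 6 (1.62 ± 0.10 SE, adjusted p = 1.42e-08, limma). On day 0 the KO to NT ratio was 0.708 with a 95% counting interval of 0.110 to 4.43.

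ALPP (ENSG00000163283.7, chr2:232378534-232382889, plus strand) had 198.5, 210.7 and 217.7 normalised counts in KO libraries on day 6, against 40.2, 67.1 and 53.4 in NT libraries. On day 0 KO libraries had 1.70, 2.01 and 0 and NT libraries 1.76, 0 and 2.32. KO and NT libraries were apart on day 6 and overlapped on day 0. ALPP was 3.90-fold higher in KO cells on day 6 (1.36 ± 0.15 SE, adjusted p = 5.2e-06, limma), and on day 0 the ratio was 0.910 with a counting interval of 0.186 to 5.37. With the floor removed and a pseudocount of 1 the day 6 difference was 1.67 and was not called (adjusted p = 0.167).

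The split of reads between ALPG and ALPP is uncertain, since 37.4% of the 31-base windows of ALPG transcripts also occur in ALPP transcripts, and 30.2% of those of ALPP in ALPG. In all, 34.1% of the ALPP windows occur in transcripts of other genes, of which there were 548 with ALPG included. For ALPG the share was 38.3%, over 2 other genes with ALPP included. The sum of ALPG and ALPP does not depend on the split between them, but it could still hold reads of other genes. It was 844.4, 983.0 and 903.9 normalised counts in KO libraries on day 6, against 238.9, 270.4 and 226.5 in NT libraries. The sum was 3.71-fold higher in KO cells, and the two-sided exact permutation test gave p = 0.1, the smallest value possible with 3 against 3 libraries. The ratio of ALPG to ALPP was 3.25, 3.67 and 3.15 in KO libraries and 4.95, 3.03 and 3.24 in NT libraries on day 6, which overlapped. ALPI averaged 1.15 normalised counts in KO cells and 1.91 in NT cells on day 6. ECEL1, an endopeptidase gene 69113 bases from ALPG on the other strand, had 91.3 in KO cells and 80.1 in NT cells on day 6. It was not called between them (0.13, adjusted p = 0.441, limma). On day 0 ECEL1 averaged 2.01 in KO cells and 0.35 in NT cells, and it was called higher on day 6 in both (1.94 in KO cells and 2.09 in NT cells).

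ALPL (ENSG00000162551.14, chr1:21509372-21578412, plus strand) differed from ALPG and ALPP in being expressed before OSKM, when it was lower in KO cells. It had 1324, 1293 and 1508 normalised counts in KO libraries on day 6, against 1206, 1256 and 1194 in NT libraries. On day 0 it had 94.7, 109.0 and 106.9 in KO libraries, against 163.6, 143.2 and 174.2 in NT libraries. KO libraries lay above NT libraries on day 6 and below them on day 0, without overlap on either day. The day 6 ratio of 1.13 was not called (0.16 ± 0.08 SE, adjusted p = 0.131, limma), while on day 0 ALPL was 35.4% lower in KO cells (-0.46 ± 0.08 SE, adjusted p = 0.00136). It rose 13.3-fold between the days in KO cells and 7.60-fold in NT cells (adjusted p = 3.66e-14 in KO cells and 7.81e-13 in NT cells). On day 6 ALPL had 457 normalised counts per kilobase of exon in KO cells and 405 in NT cells, ALPG 281 in KO cells and 76.9 in NT cells, and ALPP 68.3 in KO cells and 17.5 in NT cells.

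Genes of phosphate metabolism and mineralisation were listed beside the phosphatases. Of 15 genes 11 were tested. On day 6, 1 was higher and 4 lower in KO cells, beside 17.7% and 19.2% of all genes tested. On day 0, 1 was higher and 2 lower, beside 7.42% and 10.7%. The higher gene on day 6 was ENPP1, which makes pyrophosphate, the substrate that ALPL degrades, with 1739 normalised counts in KO cells and 1430 in NT cells (0.27, adjusted p = 0.0242, limma). Between the days 4 were called higher and 5 lower in KO cells, and 4 higher and 4 lower in NT cells. PHOSPHO1, a phosphatase of matrix vesicles, had 237.6 in KO cells and 271.3 in NT cells on day 6, against 9.22 in KO cells and 6.22 in NT cells on day 0, and was called between the days in both. SPP1, which encodes osteopontin, was called higher on day 6 than on day 0 with differences of 2.73 in KO cells and 2.89 in NT cells.

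**Figure D2:**
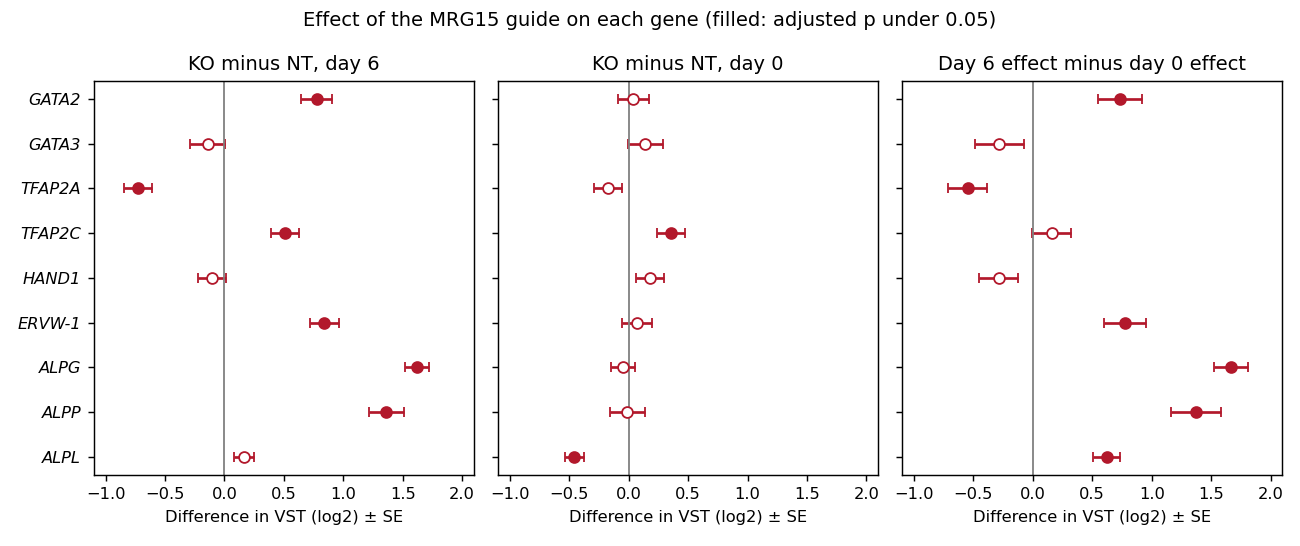
Difference between KO and NT cells in VST units (log2 scale, horizontal axis, ± SE) for each gene on day 6, on day 0, and the day 6 difference less the day 0 difference; filled points have an adjusted p under 0.05. ALPG and ALPP have the largest differences on day 6, 1.62 and 1.36, and lie at -0.05 and -0.01 on day 0.

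Whether the difference between KO and NT cells changed between the days was tested as the interaction of genotype and day. It was called positive for 5 of the 9 genes, beside 9.07% of all genes tested, and negative for 1, beside 11.2%. Of the 5, GATA2, ERVW-1, ALPG and ALPP passed the filter only through day 6, and with day 0 values so low their interaction largely restates the day 6 difference, so that this count supports nothing. The positive ones were ALPG (1.67, adjusted p = 2e-06, limma), ALPP (1.37, adjusted p = 3.25e-04), ERVW-1 (0.77, adjusted p = 0.00673), GATA2 (0.74, adjusted p = 0.0110) and ALPL (0.62, adjusted p = 0.00156). TFAP2A was the negative one (-0.55, adjusted p = 0.0301). For TFAP2C (0.16, adjusted p = 0.547), HAND1 (-0.29, adjusted p = 0.251) and GATA3 (-0.28, adjusted p = 0.373) no difference between the days' effects was called. For GATA2, ERVW-1 and ALPP the call was lost on other scales. There GATA2 had 0.69 to 0.81, and ALPP 1.71 to 2.03. ERVW-1 had 0.66 with the floor removed and a pseudocount of 10, 0.61 with estimated counts plus 1, and -0.05 with the floor removed and a pseudocount of 1. The TFAP2A interaction was lost without KO replicate 1 of day 0 (adjusted p = 0.0772), NT replicate 1 of day 0 (0.0702), KO replicate 1 of day 6 (0.0596), KO replicate 3 of day 6 (0.0678) or NT replicate 2 of day 6 (0.0725).

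Between the days themselves, 7 of the 9 genes were called higher and 2 lower in KO cells, beside 37.6% and 36.2% of all genes tested. In NT cells 7 were called higher and 1 lower, beside 33.6% and 33.1%. The means of 5 genes, GATA2, HAND1, ERVW-1, ALPG and ALPP, lay under the filter's 14.4 normalised counts in both day 0 groups, and GATA3 lay under it in both day 6 groups. Those 6 passed only through the day on which they were high, so the direction between the days was largely fixed by the filter and their number supports nothing. The 4 comparisons share their groups, and the values of one are not independent of those of the next.

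**Figure D3:**
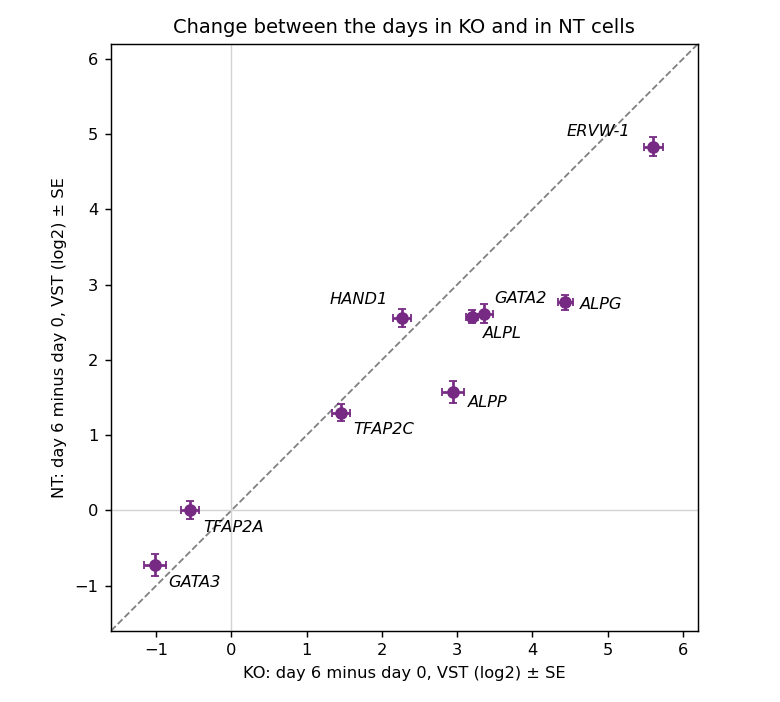
Difference between day 6 and day 0 in VST units (log2 scale, ± SE) in KO cells (horizontal axis) and in NT cells (vertical axis) for each gene; the dashed line marks equal change. ALPG stands at 4.44 in KO cells and 2.77 in NT cells, and ALPP at 2.95 in KO cells and 1.57 in NT cells. HAND1 (2.27 in KO cells and 2.55 in NT cells) and TFAP2C (1.46 in KO cells and 1.30 in NT cells) lie close to the line.

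A list of 58 other trophoblast regulators and markers held genes of both directions. Of these, 26 were tested. On day 6, 3 were called higher in KO than in NT cells, beside 17.7% of all genes tested, and 10 lower, beside 19.2%. The higher ones were KLF5, a factor of the early trophectoderm (890.0 normalised counts in KO cells and 523.5 in NT cells), EPCAM, an epithelial adhesion protein (191.8 in KO cells and 92.9 in NT cells), and KRT8, a keratin of simple epithelia. The lower ones with the largest differences were ADAM12 (-1.93, adjusted p = 6.1e-11, limma), PAPPA (-1.76, adjusted p = 3.88e-10), KRT7 (-1.20, adjusted p = 6.6e-08) and PAPPA2 (-1.05, adjusted p = 2.08e-07). ADAM12, PAPPA and PAPPA2 encode metalloproteases made by the placenta. All 3 were already expressed in the fibroblasts before OSKM. On day 0 ADAM12 averaged 6485.3 normalised counts in KO cells and 8031.5 in NT cells. PAPPA averaged 2895.5 in KO cells and 5776.2 in NT cells on day 0, and PAPPA2 1447.5 and 1474.2. On day 0, 6 were higher and 6 lower in KO cells, beside 7.42% and 10.7% of all genes tested. KRT19 (0.92) and TBX3 (0.90) were among the higher and PAPPA (-0.98) among the lower. Between the days 7 were higher and 17 lower in KO cells, beside 37.6% and 36.2% of all genes tested. In NT cells 7 were higher and 14 lower, beside 33.6% and 33.1%. The integrin gene ITGA6 had the largest rise in VST units in both genotypes (3.29 in KO cells and 3.18 in NT cells). By ratio of means ITGA6 rose 10.9-fold in KO cells and 10.2-fold in NT cells, and the homeobox gene DLX3 33.9-fold in KO cells and 23.0-fold in NT cells. Of the 32 that were not tested, 22 had under 10 normalised counts in every library.

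The defining markers of trophoblast were mostly at or near 0 on day 6. Of 12 markers, TEAD4 and KRT7 had a mean of at least 10 normalised counts in the KO and in the NT group, and the other 10 had not. CGB3, a chorionic gonadotropin gene, was at 0 in all 3 NT libraries. TEAD4, the factor that starts trophectoderm in the mouse, had 732.9 ± 13.8 normalised counts in KO cells and 633.4 ± 28.5 in NT cells on day 6 (SD, n = 3), against 236.0 ± 29.6 in KO cells and 309.6 ± 18.9 in NT cells on day 0. It was not called between KO and NT on day 6 (0.20, adjusted p = 0.0761, limma), was lower in KO cells on day 0 (-0.33, adjusted p = 0.0115), and was higher on day 6 than on day 0 in KO cells (1.45) and in NT cells (0.92). KRT7, a keratin of trophoblast and other simple epithelia, had 50.9 ± 7.70 in KO cells and 176.8 ± 18.2 in NT cells on day 6, against 859.8 ± 19.2 in KO cells and 923.5 ± 52.3 in NT cells on day 0. The summed level of the 12 markers was 796.8 to 812.8 in KO libraries and 818.5 to 849.7 in NT libraries on day 6. On day 0 it was 1073 to 1149 in KO libraries and 1174 to 1284 in NT libraries. TEAD4 and KRT7 made up most of this sum in every group, so that it says little of the other 10 markers.

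**Figure D4:**
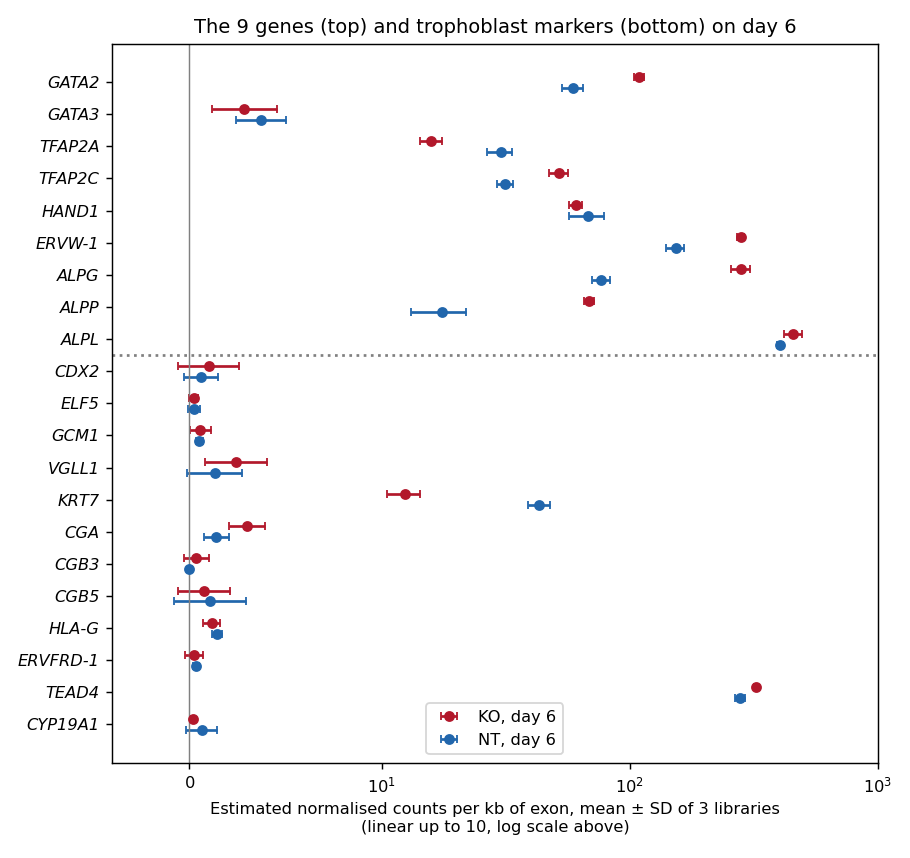
Normalised counts per kilobase of exon on day 6 (horizontal axis, linear up to 10 and logarithmic above, mean ± SD of 3 libraries) for the 9 genes above the dotted line and 12 trophoblast markers below it, in KO and NT cells. TEAD4 at 323 in KO cells and 279 in NT cells and KRT7 at 12.4 in KO cells and 43.2 in NT cells stand apart from the other 10 markers, none of which exceeds 3.01.

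Markers of other cell types moved with the groups, and their part in the 9 genes' differences was not tested. Of 10 pluripotency markers 9 were tested. On day 6, 6 were called higher and 0 lower in KO than in NT cells, beside 17.7% and 19.2% of all genes tested. The summed level of the 10 was 21689 to 22570 normalised counts in KO libraries and 14343 to 14978 in NT libraries. This sum includes SOX2 and POU5F1, which are also in OSKM. Keratinocyte markers went the other way, with 0 higher and 5 lower of 6 tested, and summed to 9621 to 9996 in KO libraries and 33300 to 35476 in NT libraries. The 10 fibroblast markers, those of the labelled cell, were present in every group, and 0 were higher and 9 lower in KO cells on day 6, with sums of 209708 to 222635 in KO libraries and 580739 to 615052 in NT libraries. On day 0 the fibroblast sum was 867108 to 877017 in KO libraries and 1173530 to 1253064 in NT libraries. There 2 markers were higher and 4 lower in KO cells, beside 7.42% and 10.7% of all genes tested.

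Of 9 mesoderm or endoderm markers only GATA6 was tested, and their sum was 59.5 to 97.2 in KO libraries and 148.4 to 183.7 in NT libraries on day 6. The amnion, which shares GATA2, GATA3, TFAP2A and HAND1 with trophoblast, had 6 of 9 listed markers tested. In KO cells 1 was higher and 4 lower on day 6, beside 17.7% and 19.2% of all genes tested. On day 0, 1 was higher and 2 lower, beside 7.42% and 10.7%. ISL1, a LIM factor of amnion and heart, was the higher one on day 6, with 121.8 normalised counts in KO cells and 79.0 in NT cells (0.42, adjusted p = 0.0462, limma). From day 0 to day 6, 3 amnion markers were higher and 3 lower in each genotype, and ACTC1, cardiac actin, was among the higher (2.62 in KO cells and 3.18 in NT cells).

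The genes with the pattern most like that of each of the 9 over the 12 libraries were chosen by the root-mean-square distance of VST values, each gene less its own mean. They were LPCAT3 (0.16) and TNFSF9 (0.17) for GATA2, C1orf54 (0.10) and STX2 (0.10) for GATA3, METRNL (0.12) and the desmosomal cadherin gene DSG2 (0.13) for TFAP2A, and RAB3D (0.12) and CDCA2 (0.12) for TFAP2C. For HAND1 they were NTSR1 (0.09) and ARC (0.11), and for ERVW-1 TRIM17 (0.15) and ABHD12B (0.16). LRRC31 (0.22) and CFAP95 (0.23) were nearest to ALPG, SNCG (0.16) and FOXE1 (0.20) to ALPP, and PODXL (0.12) and PNMA2 (0.15) to ALPL. PODXL encodes podocalyxin, a surface sialomucin that carries epitopes used to sort pluripotent cells. These distances describe 12 libraries in 4 groups and carry no test.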

How the data were processed

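RNA-seq libraries of dH1f cells were made with a stranded mRNA kit, per the labels. The authors deposited 1 table of variance-stabilised values on a log2 scale for 60660 genes in 12 libraries; STAR, Salmon, DESeq2 and GRCh38 are named in the submitters' processing notes, with versions and the use of strand not given in the sources used here. No raw counts were used: values were converted to normalised counts by inverting the parametric form of the transformation, which was assumed and rests on the value at 0 reads. In each library 68.1% to 73.0% of low values came within 0.1 of whole reads, so that no count model was fitted. Precision at low levels is limited by this conversion, and counting intervals and limits cover counting error only.

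Genes whose mean was at least 1 above the value at 0 reads (14.4 normalised counts) were tested. Limma 3.58.1 in R 4.3.3 was fitted to the deposited log2 values with 4 groups in 1 model and a mean-variance trend, two-sided, with Benjamini-Hochberg adjustment over 14858 genes, and the procedure was tested on simulated data. The genes, the lists and the tests were chosen with earlier results of these data known. By rule, the 9 genes were named, with their paralogs, up to 4 called members of each list and the 2 genes most like each. TEAD4, KRT7, the called members of short counts, the neighbouring genes and the promoter motifs were named after their values were seen.

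Gene symbols and coordinates came from GENCODE 29 (GRCh38) and matched 60419 of 60660 identifiers. Promoters came from RefSeq (GRCh38.p14) and were aligned with Biopython 1.88. Same-numbered replicates did not deviate together, with residual correlations of -0.053 to 0.063 over 18 pairs, and were not treated as pairs. Alternatives were other filters, scalings, pseudocounts and variance settings, only the 2 groups compared, a replicate block and leaving out each library. The scales of estimated counts plus 1 or plus 10 were chosen after seeing the data. Splicing was not analysed here.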

Additional observations from a re-analysis of the deposited data

Results flagged for a closer look

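The interaction of genotype and day passed the threshold for 6 of the 9 genes (limma, adjusted over all 14858 genes). It was positive for 5, beside 9.07% of all genes tested, and negative for 1, beside 11.2%. GATA2, ERVW-1, ALPG and ALPP passed the filter only through day 6, so that this count supports nothing. ALPL and TFAP2A were measured well above the floor on both days. ALPL had an interaction of 0.62, with a difference between KO and NT of 0.16 on day 6 and -0.46 on day 0, and its KO libraries lay above all NT libraries on day 6 and below all of them on day 0. TFAP2A had -0.549, with -0.73 on day 6 and -0.18 on day 0. GATA2, which was low on day 0, had 0.735, with 0.77 on day 6 and 0.04 on day 0. ALPG had 1.668, with 1.62 on day 6 and -0.05 on day 0, ALPP had 1.374, with 1.36 on day 6 and -0.01 on day 0, and ERVW-1 had 0.772, with 0.84 on day 6 and 0.07 on day 0. ERVW-1, ALPG and ALPP had under 5 normalised counts in every library on day 0, where a difference could hardly have been detected. For these 3 a difference between the days' effects is thus not shown. GATA2 averaged 11.23 normalised counts in KO cells and 11.05 in NT cells on day 0, under the filter's 14.4. Its interaction was lost on other scales (adjusted p of 0.0628 to 0.374, limma), so that it is not shown for GATA2 either.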

How the results depend on the processing

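Of 1051 recomputed values of single genes, 1016 stayed on their side of the threshold. Among these, 11 changed sign, all of differences that were not called. Calls between KO and NT numbered 4520 to 5728 on day 6 (5487 as reported) and 1924 to 2698 on day 0 (2698 as reported) over 24 alternatives each. The interaction count was 2173 to 3199 (3017 as reported). With the replicate number as a block, the calls between KO and NT numbered 5470 on day 6 and 2633 on day 0, and those of the interaction 2953, and among the 9 genes the block changed only the day 0 call of TFAP2C (adjusted p = 0.0604). The ERVW-1 interaction reversed, to -0.0498 (adjusted p = 0.977), with the floor removed and a pseudocount of 1; the cause was not tested. The GATA2 interaction was not called with the floor removed and a pseudocount of 1 or 10 (adjusted p = 0.197 and 0.0643) nor with estimated counts plus 1 or plus 10 (0.374 and 0.0628). The ALPP interaction was lost with the floor removed and a pseudocount of 1 (0.379) and with counts plus 1 (0.0611), and that of TFAP2A with no filter (0.058). The day 6 calls of ALPG, TFAP2A and TFAP2C and the interactions of ALPG and ALPL held in every alternative that gave them a value. TFAP2C, HAND1, GATA3 and ALPP fell below the stricter filter and got no value there, and the fits with only the 2 groups give no interaction. Low counts limit what can be said of GATA2, ERVW-1, ALPG, ALPP and HAND1 on day 0.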
